A study of Saccharomyces cerevisiae with 5 samples.

Results

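The salt response of a yeast strain that overexpresses HAL2 was described from the 2 arrays that compared bdf1Δ+HAL2 with bdf1Δ, out of 5 arrays in the series. These arrays were chosen by their labels and not by any measured value. They held 6388 gene probes with 3 spots each, and 4266 of these genes could be measured on both arrays. Every culture, controls included, was a Saccharomyces cerevisiae culture that had been given 0.5 mol/L NaCl for 45 min before total RNA was taken. The strain under study lacks BDF1 and overexpresses HAL2, and its reference lacks BDF1 alone. Elsewhere in the series bdf1Δhda1Δ, which lacks the histone deacetylase gene HDA1 as well, was set against the same bdf1Δ reference on 2 arrays, and bdf1Δ was set against W303, a common laboratory strain, on 1 array. The labels do not say from which promoter or vector HAL2 was expressed, or whether bdf1Δ carried an empty vector. No unstressed culture was among the samples used, so each ratio compares strains under salt and not salt with no salt.

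BDF1 encodes a bromodomain protein that binds acetylated histones and associates with the general transcription factor TFIID. HAL2, listed in the gene table as MET22, encodes a phosphatase that breaks down pAp, a nucleotide left over when sulphate is assimilated. Sodium and lithium ions inhibit this phosphatase, and pAp that builds up inhibits exonucleases such as Xrn1 and Rat1. The iron regulon of yeast, under the transcription factors Aft1 and Aft2, takes up iron either as free ions after reduction at the cell surface or bound to siderophores, small iron-chelating molecules made by other microbes.

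Both arrays of the pair hybridised the same 2 RNA samples with the dyes exchanged, per the labels, so the comparison has 1 replicate and no p-value was computed. Array 1 carried bdf1Δ+HAL2 in Cy5 and array 2 carried it in Cy3. Ratios are log2 values of bdf1Δ+HAL2 over bdf1Δ after normalization, and the SD is the spread between the 2 arrays, which is technical. Intensities are net values, the spot median minus the local background median, given as the median over a gene's spots and not normalized. They still carry the dye difference, so their ratio can differ from the normalized one. Median net intensities were 1790 for bdf1Δ+HAL2 and 1499 for bdf1Δ on array 1, and 1214 and 1393 on array 2. The SD between arrays had a median of 0.136 over genes. The ratios correlated across genes at Pearson r = 0.746 and at 0.579 by Spearman rank, although genes are not independent replicates. A gene was called higher or lower when it passed 2-fold in the same direction on both arrays, which is the rule the labels state.

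The overexpressed gene had the highest ratio of all measured genes. HAL2 (YOL064C) gave net intensities of 42018 in bdf1Δ+HAL2 and 2384 in bdf1Δ on array 1, and of 30781 and 3539.5 on array 2. The overexpressing strain was far brighter on both arrays. Its log2 ratio was 3.83 on array 1 and 3.62 on array 2, with a mean of 3.73 ± 0.15, or 13.2-fold. The 6 spots of the pair ranged from 3.62 to 3.88. RIB2, a riboflavin synthesis gene close to HAL2 in gene order (R64 assembly), stood at 0.25 ± 0.02, and the other neighbours INP54, CRT10 and APM4 were not measured.

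BDF1 (YLR399C) was at background in both strains. On array 1 its net intensity was 15 in bdf1Δ+HAL2 and −91 in bdf1Δ, and on array 2 it was −31 and −3. No spot of either strain exceeded background, whereas W303 gave 510 on the array that included it. SKI2 and SFP1, which neighbour BDF1, stood at 0.23 and −0.11. The paralogue BDF2 stood at −0.50 ± 0.34, with net intensities of 3646 and 3762 on array 1 and of 1842 and 3740.5 on array 2.

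Under this rule bdf1Δ+HAL2 had 19 genes higher and 44 lower than bdf1Δ. These were 0.445% and 1.03% of the 4266 genes measured. A further 30 genes were higher and 33 lower past 2-fold on 1 array alone, and 0 genes passed it in opposite directions. Of the 63 called genes, 56 had every used spot past 2-fold, 16 of those that rose and 40 of those that fell. The median ratio of all measured genes was 0.00, and 33.8% of the genes were above 0 on both arrays and 34.1% below 0 on both.

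**Figure D1:**
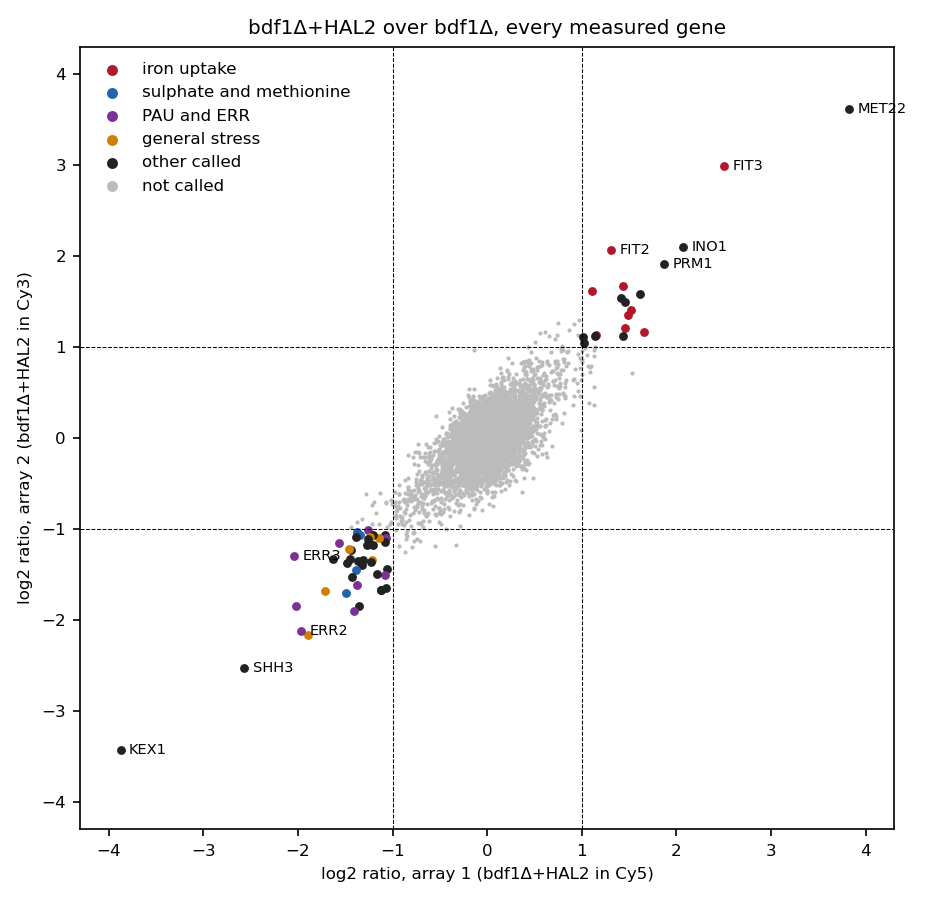
Log2 ratio of bdf1Δ+HAL2 over bdf1Δ for each of the 4266 measured genes, with array 1 (bdf1Δ+HAL2 in Cy5) on the horizontal axis and array 2 (bdf1Δ+HAL2 in Cy3) on the vertical axis. Dashed lines mark 2-fold, coloured points are the 63 called genes by function, and HAL2 (MET22) and KEX1 lie at the opposite ends of the diagonal.

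Genes of iron uptake made up 9 of the 19 genes that rose, or 47.4%. Across the 3 iron lists, which hold siderophore uptake, reductive uptake and iron regulation, 32 genes were measured, 9 of them rose, 0 fell, and 27 were above 0 on both arrays. Their median was 0.68 beside 0.00 for all genes. Of all measured genes, 0.445% rose and 33.8% were above 0 on both arrays. These lists, like the others below, were chosen with earlier results of these data known, so their counts are description only. Siderophore uptake had the highest median of the 3 iron lists, at 1.39 over 6 measured genes, of which 5 rose.

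FIT3 (YOR383C) and FIT2 (YOR382W) are neighbouring genes for cell wall mannoproteins that hold siderophore-bound iron. FIT3 gave 39634.5 in bdf1Δ+HAL2 and 6032.5 in bdf1Δ on array 1, and 32983.5 and 6920 on array 2. It rose by 2.75 ± 0.35, or 6.71-fold, and was the highest gene after HAL2. FIT2 gave 22645 and 7897.5 on array 1, and 19420.5 and 7000.5 on array 2. Both genes were well above background in bdf1Δ and brighter with HAL2 on each array. The arrays differed on the size for FIT2, at 1.31 and 2.07, with a mean of 1.69 ± 0.54.

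Siderophore transporters of the plasma membrane rose beside them. ENB1 (YOL158C), the enterobactin transporter, gave 7187 in bdf1Δ+HAL2 and 2049.5 in bdf1Δ on array 1, and 4143 and 1794 on array 2, a rise of 1.42 ± 0.10. ARN2 (YHL047C) gave 2034 and 720, then 1466 and 481, and rose by 1.37 ± 0.36, though it was not called without background subtraction. SIT1 (YEL065W), the ferrioxamine transporter, gave 4700 and 1781, then 3729 and 1904, and rose by 1.14 ± 0.01. In each of the 3, bdf1Δ+HAL2 was the brighter strain on both arrays. Their relative ARN1, at 0.98 and 0.77, was above 0 on both arrays but not past 2-fold. By print-tip loess, which normalizes each printing block of the slide on its own, SIT1 was not called.

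Reductive uptake had a median of 0.75 over 12 measured genes, 4 of which rose and 11 of which were above 0 on both arrays. FRE1 (YLR214W), a surface reductase for iron and copper, gave 2357 in bdf1Δ+HAL2 and 557 in bdf1Δ on array 1, and 2399.5 and 793 on array 2. It rose by 1.55 ± 0.17. The reductase FRE2 (YKL220C) gave 4460 and 1132.5, then 3133 and 1613, and rose by 1.41 ± 0.35. Both reductase genes were brighter with HAL2 on each array.

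FET3 (YMR058W) encodes the multicopper ferroxidase of high-affinity uptake and FTR1 (YER145C) the permease bound to it. FET3 gave 26804 in bdf1Δ+HAL2 and 8225.5 in bdf1Δ on array 1, and 18214 and 11179.5 on array 2. FTR1 gave 15111 and 4329.5, then 9882.5 and 5342. Both partners were brighter with HAL2 on each array, by 1.46 ± 0.08 for FET3 and 1.34 ± 0.17 for FTR1. With median centring in place of loess neither was called. The copper pump CCC2, which loads Fet3, stood at 0.84 ± 0.04, the vacuolar ferroxidase FET5 at 0.78 ± 0.25 and its permease FTH1 at 0.44 ± 0.31, while the copper chaperone ATX1 stood at 0.19 ± 0.03. FET4, a low-affinity iron transporter, stood at 0.42 on both arrays. None of these 5 passed 2-fold.

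Iron regulation and recycling had a median of 0.21 over 14 measured genes, with 0 called. ISU2, a scaffold for iron-sulphur cluster assembly, stood at 1.53 on array 1 and 0.71 on array 2, and the vacuolar metal transporter COT1 at 1.00 and 0.70. SMF3, which exports iron from the vacuole, stood at 0.77 ± 0.02, TIS11, which destabilises mRNAs of proteins that need iron, at 0.64 ± 0.07, and the haem oxygenase HMX1 at 0.54 ± 0.12. The regulator AFT2 stood at −0.31 ± 0.22, and AFT1 was not measured. Copper uptake had a median of −0.10 over 7 measured genes, with 0 called, and the copper-responsive metallothioneins differed in sign, CRS5 at −0.89 ± 0.26 and CUP1-1 at 0.75 ± 0.54.

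Enzymes that hold iron-sulphur clusters or haem had a median of −0.15 over 20 measured genes, of which 13 were below 0 on both arrays and 3 above. Of all measured genes, 34.1% were below 0 on both arrays, 33.8% above and 1.03% called lower. One of the 20 enzymes fell, the cytosolic catalase CTT1 (YGR088W). It gave 8469 in bdf1Δ+HAL2 and 19254.5 in bdf1Δ on array 1, and 3464.5 and 11773 on array 2, a change of −1.36 ± 0.05. MET5, the sulphite reductase subunit, stood at −0.90 ± 0.08, ferrochelatase HEM15 at −0.53 ± 0.15 and aconitase ACO1 at −0.52 ± 0.18.

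**Figure D2:**
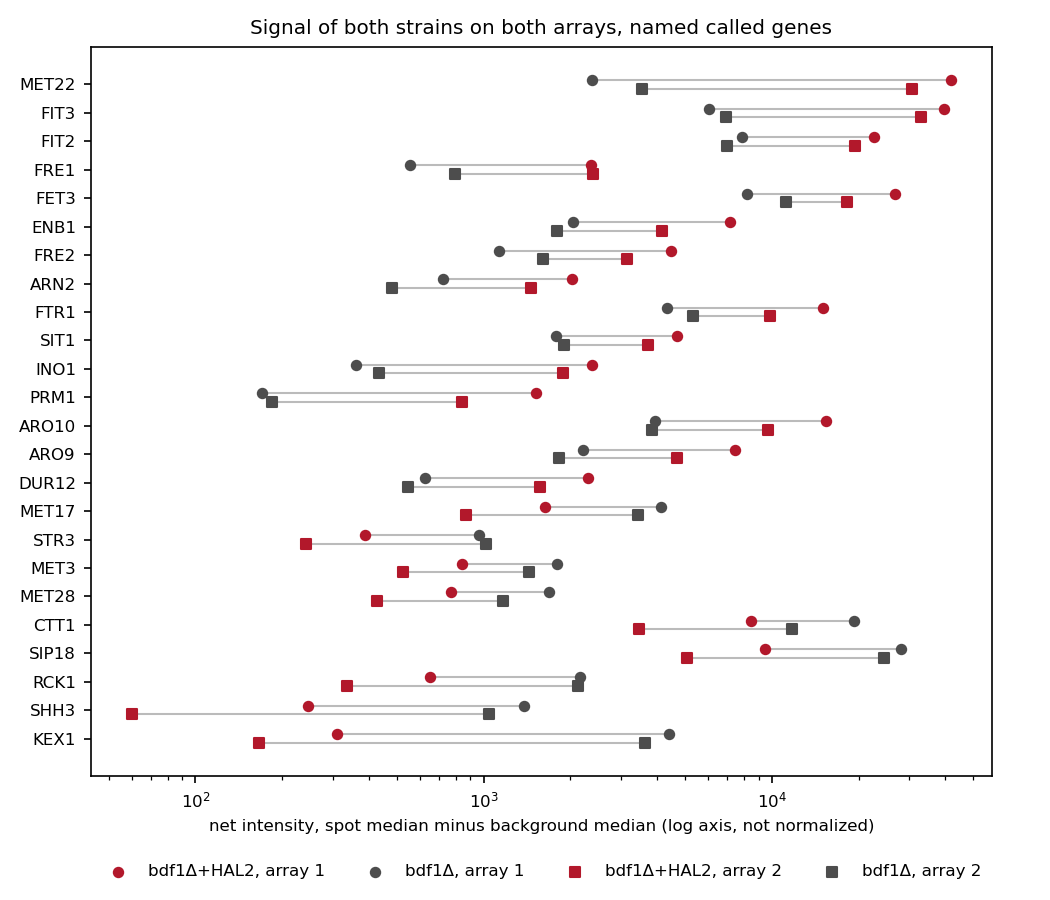
Net intensity (spot median minus background median, logarithmic axis, not normalized) of called genes in both strains on both arrays. Red marks bdf1Δ+HAL2 and grey marks bdf1Δ, circles are array 1 and squares array 2, and a line joins the 2 strains of an array. From HAL2 (MET22) to DUR12 red lies to the right of grey on both arrays, and from MET17 to KEX1 it lies to the left.

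Sulphate assimilation is the pathway that HAL2 serves, since pAp comes from its sulphate reduction step. Of the 30 genes listed, 18 were measured, and 12 were not, among them MET16, MET14 and the sulphate permeases SUL1 and SUL2. The list median was −0.08, with 4 genes called lower and 0 higher. Of the list, 6 genes were above 0 on both arrays and 9 below, beside 33.8% and 34.1% of all measured genes. The share called lower among all measured genes was 1.03%.

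MET17 (YLR303W), the sulphhydrylase that makes homocysteine, gave 1627.5 in bdf1Δ+HAL2 and 4141.5 in bdf1Δ on array 1, and 867 and 3444.5 on array 2, and fell by 1.60 ± 0.14 on the log2 scale. STR3 (YGL184C), cystathionine β-lyase, gave 388 and 967, then 241 and 1019, for a ratio of −1.42 ± 0.04. MET3 (YJR010W), the ATP sulphurylase of the first step, gave 839 and 1793, then 526 and 1437, for a ratio of −1.21 ± 0.20. In all 3 the strain with HAL2 was the dimmer one on both arrays, and for STR3 on array 2 fewer than 2 of its spots were above background. MET28 (YIR017C), a transcriptional regulator of the pathway, gave 772 and 1686, then 425 and 1163, for a ratio of −1.20 ± 0.24. It passed 2-fold narrowly on array 2, at −1.04, and lost the call under 5 of 13 alternative settings.

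Further along the pathway the sulphite reductase subunits MET10 and MET5 stood at −0.85 ± 0.24 and −0.90 ± 0.08. The enzymes that use homocysteine and methionine lay the other way or near 0. SAH1, which hydrolyses S-adenosylhomocysteine, stood at 0.60 ± 0.28, the S-adenosylmethionine synthetases SAM2 and SAM1 at 0.49 ± 0.10 and −0.26 ± 0.17, cystathionine β-synthase CYS4 at 0.36 ± 0.07 and methionine synthase MET6 at 0.19 ± 0.08. The transcription factors MET4 and CBF1 stood at 0.04 and 0.20. None of these 9 genes was called.

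Phosphatases and exonucleases linked to HAL2 had a median of 0.03 over 9 measured genes, in which HAL2 itself was the 1 gene called. XRN1, the cytoplasmic 5′ exonuclease, stood at 0.21 and 0.74, and its nuclear counterpart RAT1 at 0.29 on both arrays. The inositol monophosphatase INM1 stood at −0.44 ± 0.22.

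Apart from HAL2 and the iron genes, the highest gene was INO1 (YJL153C), which encodes inositol-3-phosphate synthase, the first enzyme of inositol synthesis. It gave 2369 in bdf1Δ+HAL2 and 360 in bdf1Δ on array 1, and 1886 and 432 on array 2, and rose by 2.09 ± 0.02, or 4.24-fold. On array 1 bdf1Δ had fewer than 2 INO1 spots above background, so the size there rests on a dim reference. It is uncertain beyond that SD, at 2.37 with plain background subtraction, 1.85 with none and 2.61 in the authors' deposited table. Inositol and phospholipid genes had a median of 0.41 over 22 measured genes, of which 15 were above 0 on both arrays and INO1 alone was called. Among all measured genes 33.8% were above 0 on both arrays and 0.445% were called higher. The inositol transporter ITR1 stood at 1.12 and 0.97, phosphatidylserine decarboxylase PSD1 at 1.06 and 0.79, and the choline transporter HNM1 at 0.55 and 1.16, each short of 2-fold on 1 array. OPI3 and CHO2, which methylate phosphatidylethanolamine, stood at 0.84 ± 0.02 and 0.42 ± 0.22, and the regulators INO2, INO4 and OPI1 at −0.14, 0.24 and 0.39.

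Ergosterol synthesis had a median of 0.56 over 25 measured genes, with 23 above 0 on both arrays, 1 below on both and 0 called. Over all measured genes 33.8% were above 0 on both arrays and 34.1% below. ERG5, ERG6, ERG26 and MVD1 had means past 2-fold, at 1.07, 1.03, 1.01 and 1.01, but ERG6 (0.86), ERG26 (0.75) and MVD1 (0.90) stayed under it on 1 array each, and ERG5 lay at the limit, at 1.14 and 1.00. The early enzyme ERG13, HMG-CoA synthase, stood at 0.94 ± 0.03, while the HMG-CoA reductases differed, HMG1 at 0.64 ± 0.21 and HMG2 at −0.10 ± 0.36. The sterol regulator UPC2 stood at −0.13. Fatty acid synthesis lay lower, with a median of 0.23 over 16 measured genes and 0 called. ACB1, the acyl-CoA binding protein, and the elongase ELO2 were its highest, at 0.59 ± 0.23 and 0.55, and the desaturase OLE1 stood at 0.01 ± 0.10.

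**Figure D3:**
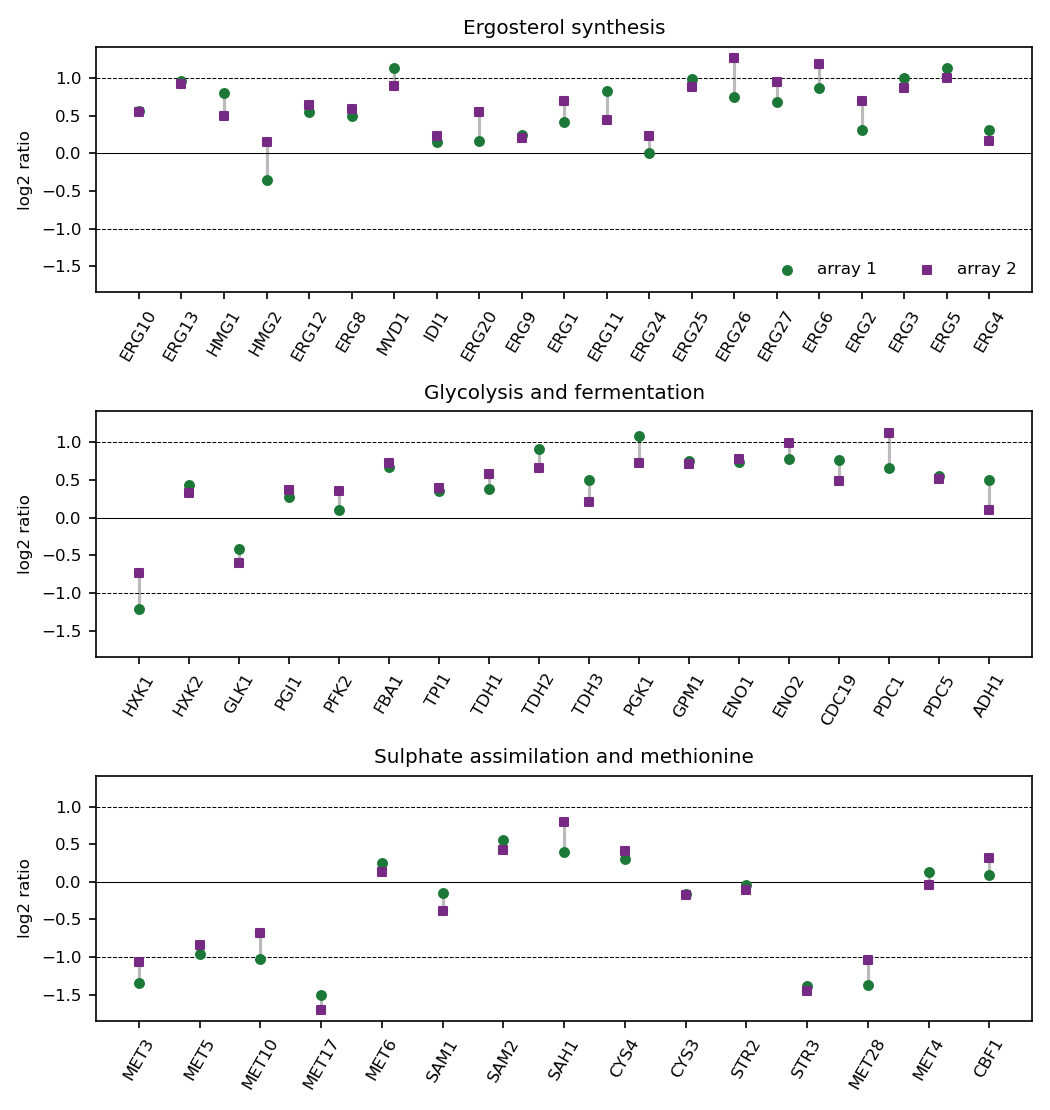
Log2 ratio of bdf1Δ+HAL2 over bdf1Δ on array 1 (circles) and array 2 (squares) for enzymes in pathway order, with dashed lines at 2-fold. Ergosterol enzymes lie above 0 on both arrays except HMG2, glycolytic enzymes lie above 0 except HXK1 and GLK1, and in sulphate assimilation MET3, MET5, MET10, MET17, STR3 and MET28 lie well below 0 while SAM2, SAH1 and CYS4 lie above.

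Genes for the first steps of aromatic amino acid breakdown, ARO10 and ARO9, rose. ARO10 (YDR380W), the decarboxylase that makes aldehydes of the Ehrlich pathway, gave 15463 in bdf1Δ+HAL2 and 3934 in bdf1Δ on array 1, and 9716.5 and 3846.5 on array 2, and rose by 1.60 ± 0.03. The aromatic aminotransferase ARO9 (YHR137W) gave 7438.5 and 2220, then 4685 and 1827, and rose by 1.48 ± 0.03. Both genes had closely matching ratios on the exchanged dyes. The list had a median of 0.57 over 8 measured genes, or 0.36 with median centring. Its branched-chain aminotransferases BAT2 and BAT1 stood at 0.74 ± 0.31 and 0.61 ± 0.25, and the constitutive aromatic aminotransferase ARO8 at 0.03 ± 0.18.

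DUR12 (YBR208C, DUR1,2), urea amidolyase, gave 2303 and 624.5 on array 1 and 1570 and 547.5 on array 2, and rose by 1.48 ± 0.09. The other genes of urea, ammonium and poor nitrogen use were not called, and the list had a median of 0.12 over 25 measured genes. The ammonium transporter MEP2 stood at 0.82 ± 0.25, the general amino acid permease GAP1 at 0.65 ± 0.11 and the repressor DAL80 at 0.61 ± 0.17. Amino acid permeases had a median of 0.12 over 19 measured genes with 0 called, led by the peptide transporters PTR2 and OPT2 at 0.97 ± 0.03 and 0.90 ± 0.15. Amino acid synthesis under Gcn4 lay at 0.09 over 42 measured genes with 0 called, and ILV5 and ASN2 were its highest, at 0.61 and 0.50. Purine and pyrimidine synthesis lay at 0.03 over 30 measured genes with 0 called, and GCV2, a glycine cleavage subunit, and URA2 were its highest, at 0.93 and 0.74.

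PRM1 (YNL279W), a membrane protein of mating-cell fusion, was the remaining gene among the 4 highest. It gave 1517 in bdf1Δ+HAL2 and 170.5 in bdf1Δ on array 1, and 844.5 and 184.5 on array 2, and rose by 1.89 ± 0.03, or 3.71-fold. On array 1 bdf1Δ had fewer than 2 PRM1 spots above background. The size of this rise is uncertain beyond that SD, at 2.40 with plain background subtraction, 1.56 with none and 2.01 in the authors' deposited table. The pheromone list did not share the direction of PRM1, with a median of −0.18 over 17 measured genes. Of these, 11 were below 0 on both arrays, beside 34.1% of all measured genes. The other genes that rose were MAG1 (1.28 ± 0.22), a DNA glycosylase, TVS1 (1.13 ± 0.01), YOR225W (1.06 ± 0.07) and YRO2 (1.03 ± 0.01), a relative of the membrane protein Hsp30. YRO2 lost the call under 4 alternative settings and YOR225W under 1.

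Markers of mating type were used to check the cells. The a-cell list had a median of −0.75 over 6 measured genes, all 6 below 0 on both arrays and 0 called. Among all measured genes 34.1% were below 0 on both arrays. BAR1, the protease that degrades α-factor, stood at −0.92 ± 0.05, the receptor STE2 at −0.77 ± 0.01, the pheromone genes MFA1 and MFA2 at −0.76 ± 0.11 and −0.71 ± 0.32, AGA2 at −0.74 ± 0.19 and the exporter STE6 at −0.50 ± 0.11. Of 4 α-cell genes, SAG1 alone was measured, at 0.04 ± 0.18. The 5 haploid genes had a median of −0.28, from −0.94 for RME1 to −0.12 for STE4, and none of the 5 meiosis genes was measured. In these cultures fewer a-type cells and less of these mRNAs per cell cannot be told apart.

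No gene fell further than KEX1 (YGL203C), which encodes a Golgi carboxypeptidase that trims killer toxin and the α-factor precursor. KEX1 gave 310 in bdf1Δ+HAL2 and 4388 in bdf1Δ on array 1, and 166 and 3624 on array 2. Signal far above background in bdf1Δ was thus close to background with HAL2. The ratios were −3.87 and −3.43, with a mean of −3.65 ± 0.31, or 12.6-fold lower, and the 6 spots ran from −3.99 to −3.28. On array 2 fewer than 2 spots exceeded background in bdf1Δ+HAL2. The next measured genes along the chromosome, ARO8 and MCM6, stood at 0.03 and 0.25. The list of proteases and inhibitors, KEX1 included, had a median of −0.15 over 15 measured genes, of which PAI3, an inhibitor of proteinase A, fell too (−1.12 ± 0.03). The yapsin YPS3 stood at −0.84 ± 0.05 and the vacuolar aminopeptidase APE1 at 0.68 ± 0.05.

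SHH3 (YMR118C), a homologue of a succinate dehydrogenase subunit, gave 245 in bdf1Δ+HAL2 and 1377 in bdf1Δ on array 1, and 60 and 1045 on array 2. Its ratios were −2.57 and −2.53, with a mean of −2.55 ± 0.03, and in bdf1Δ+HAL2 none of its spots was above background on array 2. The size of this fall is therefore uncertain beyond that SD, at −3.57 with plain background subtraction, −1.99 with none and −3.29 in the authors' deposited table. SHH4, the homologue of another subunit, stood at −0.94 on both arrays, and the subunits SDH3, SDH1 and SDH4 at −0.47, −0.40 and −0.27. The neighbours of SHH3 in gene order, ASC1, ASI1 and ADE17, stood at 0.37, 0.25 and 0.12.

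The ERR genes, which resemble enolase and lie near chromosome ends, fell as a group of 3. ERR2 (YPL281C) gave 767.5 in bdf1Δ+HAL2 and 2714 in bdf1Δ on array 1, and 473 and 2779 on array 2, for a ratio of −2.05 ± 0.11. ERR1 (YOR393W) gave 576.5 and 2119, then 465 and 2312.5, for −1.94 ± 0.13. ERR3 (YMR323W) gave 442 and 1641.5, then 341 and 1162, for −1.67 ± 0.53. The 3 genes are near-identical and may share signal, so they count as 1 uncertain measurement. The enolases ENO1 and ENO2 lay on the other side of 0, at 0.76 ± 0.03 and 0.89 ± 0.15.

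Seripauperins, near-identical cell wall proteins of the PAU family that also lie mostly near chromosome ends, had a median of −1.08 over 13 measured genes. All 13 were below 0 on both arrays and 6 fell, against 34.1% and 1.03% of all genes. Near-identical copies may share signal, so these counts do not stand for independent genes. Of the 24 listed, 11 were not measured. PAU22 gave 781 in bdf1Δ+HAL2 and 1733 in bdf1Δ on array 1, and 257.5 and 1430.5 on array 2, for a ratio of −1.66 ± 0.35. PAU19 gave 400.5 and 929, then 161 and 816, for −1.38 on array 1 and −1.62 on array 2. The other called members were PAU15 (−1.36), PAU23 (−1.30), PAU7 (−1.14) and PAU10 (−1.08), and the smallest ratios were those of PAU9 (−0.16) and PAU4 (−0.19). PAU22 adjoins ERR2, and PAU19 adjoins ERR3. PAU7 and PAU10 lost the call in 3 and 2 alternative settings.

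Hydrophilins and general stress genes had a median of −0.42 over 32 measured genes, with 25 below 0 on both arrays, 5 above, 6 called lower and 0 higher. Of all measured genes, 34.1% were below 0 on both arrays and 1.03% were called lower. The list was chosen with earlier results of these data known, so its counts are description and not independent support. RCK1 (YGL158W), a protein kinase of the oxidative stress response, gave 653.5 in bdf1Δ+HAL2 and 2165.5 in bdf1Δ on array 1, and 335 and 2126.5 on array 2, for a ratio of −2.03 ± 0.19. The hydrophilin SIP18 (YMR175W), which lies beside PAI3, gave 9461 and 28172, then 5096.5 and 24550, for −1.70 ± 0.02. In both genes the strain with HAL2 was the dimmer one on each array. The others that fell were the mitochondrial protein FMP16 (−1.34 ± 0.17), the hydrophilin STF2 (−1.28 ± 0.09), RGI1 of respiratory growth (−1.16 ± 0.11) and PAI3. RGI1 was not called without background subtraction, by print-tip loess or with median centring.

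Several stress genes that were not called lay below 0, among them the Hsp70 gene SSA3 (−0.98 ± 0.17), DDR2 (−0.98 ± 0.06) and the repressor XBP1 (−0.85 ± 0.20). Not all stress genes did. HSP12, a membrane-associated small heat shock protein, stood at 0.21 ± 0.11, although print-tip loess gave −0.13, the disaggregase HSP104 at 0.24 ± 0.09 and the regulator MSN2 at 0.52. Chaperones as a list had a median of 0.26 over 30 measured genes, with 0 called, led by HSC82 (0.66 ± 0.17) and SSA1 (0.62 ± 0.26). Of the 30, 21 were above 0 on both arrays, beside 33.8% of all measured genes. Antioxidant enzymes had a median of −0.03 over 26 measured genes, and 2 of them were called lower, beside 1.03% of all measured genes. CTT1 and the peroxiredoxin TSA2 fell, the latter with 4429 and 7764.5 on array 1 and 2316 and 7728.5 on array 2, for −1.25 ± 0.26, and TSA2 was not called with median centring.

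Storage carbohydrates and sugar transport lay low without many calls. For trehalose and glycogen metabolism the median was −0.63 over 20 measured genes, with 16 below 0 on both arrays, 2 above and 0 called. SGA1, a glucoamylase, and GIP2, a phosphatase subunit, were the lowest, at −0.91 ± 0.18 and −0.90, and the trehalose synthase genes TPS1 and TPS2 stood at −0.71 ± 0.09 and −0.72 ± 0.08. Hexose transport had a median of −0.48 over 13 measured genes, with 11 below 0 on both arrays. For both lists the shares over all measured genes were 34.1% below 0 on both arrays, 33.8% above and 1.03% called lower. HXT2 (YMR011W), a high-affinity glucose transporter, gave 5167.5 in bdf1Δ+HAL2 and 11930 in bdf1Δ on array 1, and 3490 and 12651 on array 2, and its ratio was −1.48 ± 0.07. The near-identical HXT6 and HXT7 stood at −0.78 and −0.89, and HXT1, a low-affinity transporter, at 0.15 ± 0.31.

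Glycolysis and fermentation lay on the other side, with a median of 0.35 over 28 measured genes and 0 called, a median that fell to 0.19 by print-tip loess and 0.21 with median centring. The highest were PGK1 (0.90 ± 0.25), PDC1 (0.89 ± 0.33) and ENO2. The glucose-phosphorylating enzymes HXK1 (−0.98 ± 0.34) and GLK1 (−0.51 ± 0.13) lay below 0, and HXK2 lay above it (0.38 ± 0.08). The respiratory chain had a median of −0.20 over 34 measured genes, with 0 called, and NDE2, an external NADH dehydrogenase, was the lowest at −1.21 and −0.95. Of the 34, 22 were below 0 on both arrays, beside 34.1% of all measured genes. The tricarboxylic acid cycle lay at −0.17 over 20 measured genes, led by IDP2 (−0.92 ± 0.18) and CIT2 (−0.89 ± 0.26), with 0 called.

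**Figure D4:**
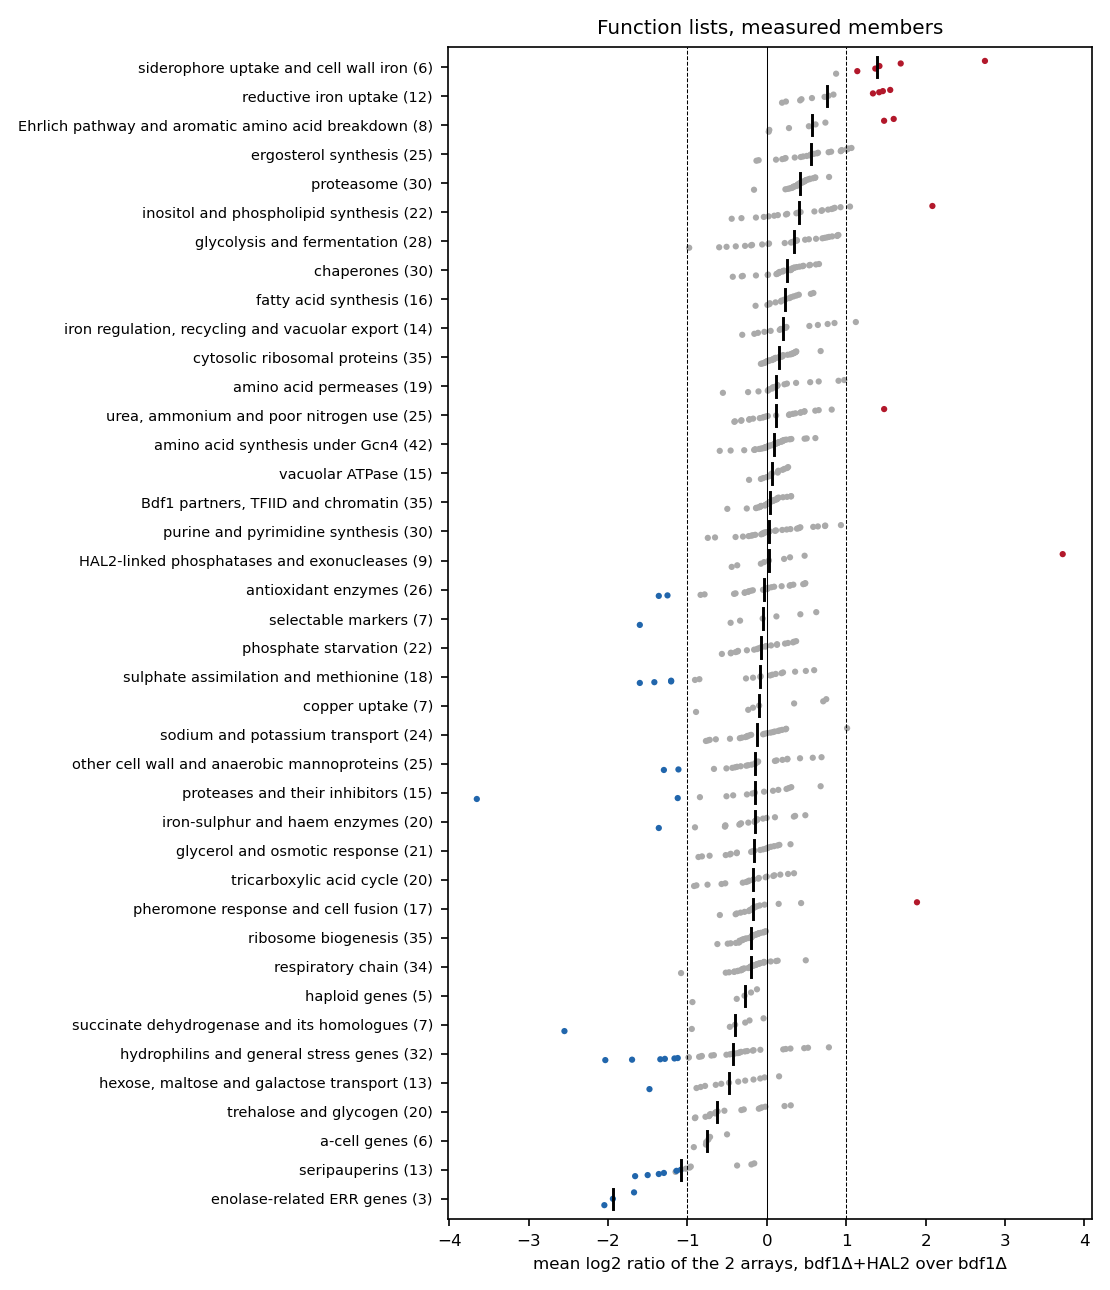
Mean log2 ratio of bdf1Δ+HAL2 over bdf1Δ for the measured members of each function list, with the number measured in parentheses. Each point is a gene, red if called higher and blue if called lower, the black tick is the list median, and the lists run from siderophore uptake (median 1.39) to the ERR genes (median −1.94).

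Ion transport and the osmotic response, the classical answers of yeast to sodium, held 0 called genes. Sodium and potassium transport had a median of −0.12 over 24 measured genes. The sodium pumps ENA1, ENA2 and ENA5, near-identical copies, stood at 0.14 ± 0.26, 0.10 ± 0.21 and 0.16 ± 0.06, the kinase HAL5 at −0.77 ± 0.06, the calcineurin regulator RCN1 at −0.74 and HAL1 at −0.72 ± 0.02. The plasma membrane proton pump PMA1 stood highest, at 1.04 and 0.99, just under 2-fold on array 2. Glycerol and osmotic genes had a median of −0.16 over 21 measured genes. The aquaporin AQY1 stood at −0.86 ± 0.16 and GCY1 at −0.82 ± 0.17, while GPD1, the glycerol-3-phosphate dehydrogenase of glycerol synthesis, stood at 0.13 ± 0.18 and the kinase HOG1 at −0.18 ± 0.12. The vacuolar proton ATPase had a median of 0.06 over 15 measured genes and phosphate starvation genes one of −0.07 over 22, with 0 called in either.

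Proteasome subunits lay close together above 0, with a median of 0.41 over 30 measured genes, 29 of them above 0 on both arrays and 0 called. PRE6 was the highest at 0.78 ± 0.05, and RPN4, the regulator of these genes, was the 1 member below 0 at −0.16 ± 0.09. Ribosome biogenesis factors lay below 0, with a median of −0.20 over 35 measured genes, 30 of them below 0 on both arrays and none above, led by the helicases DBP2 (−0.62 ± 0.09) and DBP3 (−0.49 ± 0.20). Of all measured genes, 33.8% were above 0 on both arrays and 34.1% below. Cytosolic ribosomal proteins had a median of 0.15 over 35 measured genes, or 0.02 with median centring, with RPS6A the highest at 0.68 ± 0.17. Partners of Bdf1, TFIID and chromatin genes had a median of 0.03 over 35 measured genes, from BDF2 at −0.50 to HDA2, a deacetylase subunit, at 0.31, with 0 called. The selectable marker genes LEU2 and URA3 stood at 0.62 ± 0.19 and 0.42 ± 0.12, and TRP1 and HIS3 at −0.34 ± 0.06 and −0.46 ± 0.10. Of the 7 markers measured, 1 was called, the sulphate gene MET17 at −1.60.

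The other genes that fell had varied roles. DAD3 (YBR233W-A), a subunit of the kinetochore DASH complex, gave 1892.5 in bdf1Δ+HAL2 and 5121 in bdf1Δ on array 1, and 1263 and 3774.5 on array 2, for a ratio of −1.48 ± 0.22. CMG1 (YLR271W) gave 985.5 and 2189.5, then 328 and 1647, for −1.60 ± 0.35. The paralogues ISF1 and MBR1, linked to mitochondrial function, stood at −1.43 ± 0.08 and −1.18 ± 0.11. Signalling and transcription genes among them were the calmodulin-dependent kinase CMK2 (−1.33), the repressor NRG1 (−1.39), the heat-shock-factor-like MGA1 (−1.20) and RIM8 of the external pH pathway (−1.24). The peroxisomal isomerase ECI1 (−1.36), the stationary-phase gene SPG4 (−1.39), UIP4 (−1.36) and the cell wall genes NCW2 (−1.34) and PIR3 (−1.11) fell as well. PIR3 was not called by print-tip loess (−0.77) or in the authors' deposited table (−0.79). CPP3 (−1.29), PAL2 (−1.22), HAB1 (−1.19) and the reading frames YIL175W (−1.33), YPL185W (−1.14) and YER121W (−1.07) were also among the 44. ECI1, PAL2, RIM8 and YER121W each lost the call under at least 1 alternative setting.

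Of the 63 called genes, 13 had a strain with fewer than 2 spots above background on 1 array, and 0 had one on both. Besides INO1 and PRM1 these were 11 genes that fell, all dim in bdf1Δ+HAL2 on array 2: KEX1, SHH3, PAU22, CMG1, PAU19, STR3, RIM8, MGA1, RGI1, PAU10 and YER121W. With both strains required above background, 17 genes rose and 33 fell.

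The same genes were set beside the other arrays as values only, since bdf1Δ is a control or a test strain in each and the comparisons share it. In bdf1Δhda1Δ over bdf1Δ, FIT3 stood at 3.69 ± 0.04, FIT2 at 3.19 ± 0.08, ENB1 at 2.05 ± 0.05, SIT1 at 1.81 ± 0.16, FRE1 at 1.68 ± 0.05, FET3 at 1.42 ± 0.03 and FTR1 at 1.39 ± 0.04. Outside iron the values there were as follows. ARO10 and ARO9 stood at 0.15 ± 0.03 and 0.17 ± 0.17, KEX1 at 0.10 ± 0.31, HXT2 at 0.11 ± 0.15, SIP18 at −0.29 ± 0.10, DAD3 at 0.58 ± 0.08 and RGI1 at 1.14 ± 0.03, while RCK1 stood at −1.43 ± 0.04 and FMP16 at −1.87 ± 0.15. INO1, PRM1, SHH3, MET17 and the ERR genes were not measured on that pair. The bdf1Δ over W303 comparison had 1 array without dye exchange. There FIT2 stood at −1.23, ENB1 at −1.05, FET3 at −0.73, FIT3 at 0.10, FTR1 at 0.58, FRE2 at 1.05 and FRE1 at 1.53. HAL2 stood at −0.82 on that array, where bdf1Δ was not above background for it. Nor was bdf1Δ above background there for BDF2 or HDA1, at net intensities of 39 and 31. On the HAL2 pair bdf1Δ gave 3762 and 3740.5 for BDF2.

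**Figure D5:**
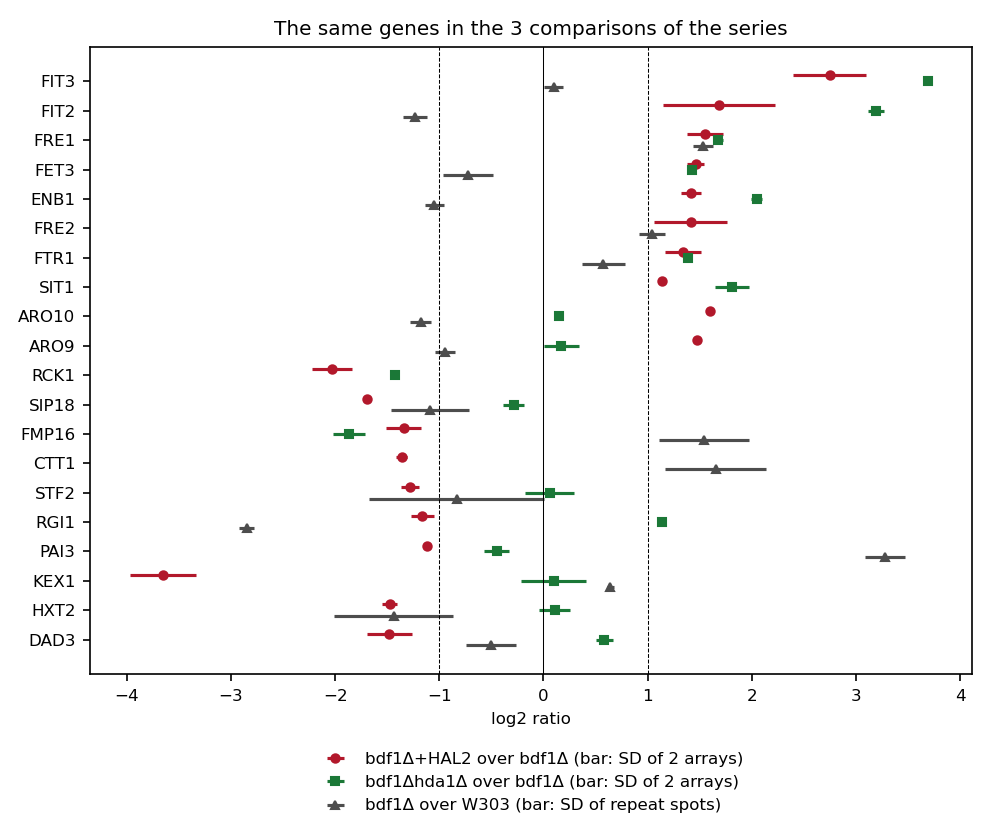
Log2 ratios of called genes in bdf1Δ+HAL2 over bdf1Δ (circles), bdf1Δhda1Δ over bdf1Δ (squares) and bdf1Δ over W303 (triangles), where measured. Bars are the SD of 2 arrays, or of repeat spots for the W303 array. The iron genes from FIT3 to SIT1 lie above 1 in both comparisons with bdf1Δ where both were measured, while KEX1, HXT2 and DAD3 lie below −1 with HAL2 and at 0.10 or above in bdf1Δhda1Δ.

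The rank of bdf1Δ itself differed between the pairs, most for the FIT genes among those compared. Among all gene probes of a channel, FIT3 ranked in bdf1Δ at percentile 91.6 and 93.6 on the HAL2 pair against 78.4 and 81.7 on the bdf1Δhda1Δ pair, and FIT2 at 94.2 and 93.7 against 76.0 and 76.9. KEX1, at 87.6 and 86.4 against 84.3 and 79.8, differed less. So did FET3, at 94.6 and 96.9 against 90.6 and 90.9, and SIP18, at 99.0 and 98.7 against 97.3 and 97.9. For HAL2 no rank is compared, since the image software found none of its spots on the bdf1Δhda1Δ pair, where bdf1Δ gave a net intensity of 232 with 0 spots above background and of 520 with 3. The bdf1Δ signal thus ranked higher for each gene compared where the other channel held bdf1Δ+HAL2, and its part in the size of their ratios was not tested.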

How the data were processed

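The data are 2-colour oligonucleotide arrays. Per the file headers, the deposited scanner output gives for every spot the signal intensity and the surrounding background intensity in both channels. The authors also deposited a table with 1 linear ratio for each probe. It ran as test over reference strain, with medians of 1.01 and 0.992 on the 2 arrays and Pearson correlations with the scanner log2 values of 0.917 and 0.896 over 4257 genes. How the authors centred it is unknown, and it was used as an alternative. Per the labels' protocols, RNA was linearly amplified and labelled with Cy5 or Cy3. The image software is not given in the sources used here.

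Spot and background medians were corrected by normexp (offset 50) and then loess-normalized array by array over the whole slide, where control spots and spots that were not found had weight 0. This used limma 3.58.1 in R 4.3.3. Ratios changed sign on the array with bdf1Δ+HAL2 in Cy3. A spot was used if found and at least 1 channel exceeded background by 2 background SDs, and saturated spots were kept. A gene needed 2 of its 3 spots on each array, and its value was their mean. The image software had found 72.9% and 68.9% of the 19164 gene spots. The number of arrays limits the precision. The steps were tested on simulated data. Tables were made with pandas 2.3.3 and NumPy 2.4.6 under Python 3.11.15, and plots with matplotlib 3.10.9.

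Locus tags in the R64 gene table matched 5849 of the 6388 probes. They matched 61 of the 63 called genes, all but YOR225W and YPL185W. The files name no build, so no coordinates are given, and no sequences were used. Near-identical genes (ERR, PAU, HXT, ENA, paired ribosomal proteins) are uncertain as to the copy, and reading frames that overlap on opposite strands may share signal.

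The 42 function lists and the genes named were chosen with earlier results of these data known. The rule names HAL2, BDF1 and their neighbours, every called gene with a symbol (1 of them is not reported here), with full values for the 12 highest, the 12 lowest and the called iron and sulphate genes, at most 2 leading members of a list without a called gene, and the 3 largest genes past 2-fold on 1 array. Other genes were named after their values were seen.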

Additional observations from a re-analysis of the deposited data

How the results depend on the processing

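The counts of 19 higher and 44 lower genes ranged from 17 to 27 and from 33 to 59 across the settings that kept both arrays, apart from scale normalization over all 5 arrays, which was chosen after the data were seen and gave 32 higher and 63 lower genes. That scaling divides all ratios of an array by a constant, which enlarged the ratios of this pair against a fixed 2-fold limit. Leaving out 1 array, which by construction asks for 2-fold on a single array, gave 35 to 36 higher and 60 to 70 lower genes. The HAL2 ratio, 3.73 as reported, was 3.54 with median centring, 3.47 in the authors' deposited table, 3.62 to 3.83 with 1 array left out, and 4.33 with scale normalization over all 5 arrays. KEX1, −3.65 as reported, was −4.25 under that last scaling. The call of HAL2 held under each of the 13 settings, and apart from that scaling the cause of the moves was not tested. Iron genes called higher numbered 7 to 11. Of the 62 called genes other than HAL2, 46 kept their call under every setting that measured them, 16 lost it under at least 1, and 0 of 793 values changed sign. The 16 were ARN2, ECI1, FET3, FTR1, MET28, PAL2, PAU10, PAU7, PIR3, RGI1, RIM8, SIT1, TSA2, YER121W, YOR225W and YRO2. These counts were partly fixed in advance. Leaving out 1 array could not remove a call, and scaling over all 5 arrays enlarged the ratios of this pair. Genes dim in 1 strain, such as KEX1, SHH3, INO1 and PRM1, were not measured with both strains required above background. Genes chosen for lying past 2-fold could hardly change sign. Between the loess settings, median centring and the background settings, list medians changed sign for 2 lists, the α-cell genes and the selectable markers. No paired analysis was possible because the arrays of the pair are a dye exchange of the same 2 samples and the result comes from no test. Promoter motifs were not searched, since no sequences were used here. Signal over background limits the genes that were dim in 1 strain, and of these PAU10, RIM8, RGI1 and YER121W lost their call without background subtraction.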

Other observations

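The 67 measured genes among the first 5 from an end in gene order (R64 assembly) had a median log2 ratio of −0.29, with 50 below 0 on both arrays, 2 called higher and 7 lower. Without the PAU and ERR genes 54 remained, with a median of −0.27 and 0 called lower, and the 2 called higher were kept. The 3296 genes 41 or more places from an end had a median of 0.00, with 1120 below 0 on both arrays, 12 called higher and 32 lower. Medians by chromosome ran from −0.03 (XI) to 0.09 (VI).

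Of the genes past 2-fold on 1 array alone, the largest mean ratios were those of the reading frame YGL046W (−1.20 ± 0.33), the seripauperin PAU3 (−1.15 ± 0.32) and EHT1 (1.13), an enzyme of fatty acid ester synthesis. The control spots of ACT1, the actin gene, had median ratios of 0.27 and 0.26 on the 2 arrays over 130 and 142 used spots, and those of RPL32, SSA4 and UB14 lay between −0.13 and 0.06. The ACT1 spots were alike on the exchanged dyes. By signal, the median ratio ranged from −0.02 to 0.04 across the 5 intensity classes, and 41.1% of the genes in the brightest class were above 0 on both arrays.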
